A study of Oncorhynchus mykiss with 60 samples.

Results

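Transcription factors of the anterior and neural program were followed through the first days of rainbow trout (Oncorhynchus mykiss) development, from the egg to a blastula. The genes were otx1, otx2b, her5, her9, sall1a and bhlhe22, taken from the count table by their trout symbol or by the symbol of their zebrafish ortholog. They came to 11 copies among 23471 features: 5 of the 6 symbols had 2 copies each and her5 had 1. Eggs and embryos had been sliced from the animal to the vegetal pole into sections A, B, C, D and E, where A is the animal end and E the vegetal end, and every section was sequenced by itself. The times of sampling, in hours (hpf) or days (dpf) after fertilization, were 0 hpf, 1 hpf, 1 dpf with about 32 to 64 cells and 3 dpf with about 1000 cells. For 0 hpf the labels name an unfertilized egg as well as a zygote, and for 1 hpf a 1-cell egg as well as early cleavage, and each stage is therefore named by its time. No strain, treatment or genetic change is named for any group, and nothing is said of parents, clutches or pooling of embryos.

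Otx factors are homeodomain proteins that mark and build the forebrain and midbrain in vertebrates. The her genes encode Hairy-type repressors with a basic helix-loop-helix domain that hold neural progenitors back from differentiating, sall1a encodes a spalt-type zinc-finger protein, and bhlhe22 encodes a repressor of the Olig family that acts in neurons of the retina and spinal cord in mouse. A fish egg carries maternal transcripts laid down in the ovary, and the embryo's own genome is switched on in the blastula, before any neural tissue exists. The name of the group therefore stands for what these genes do later, and salmonids carry many genes as pairs because their ancestor's genome was duplicated.

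Counts were available for 55 libraries, from 3 replicates at 0 hpf, 2 at 1 hpf (numbers 1 and 3), 3 at 1 dpf and 3 at 3 dpf, with totals of 1.09 to 14.46 M counts (median 4.6 M). Levels are counts scaled to the size of each library (CPM), so each is a share of the reads of its section. In such bulk samples, fewer cells of a type and less RNA per cell cannot be told apart. The order of the sections was compared with a list of vegetal pole transcripts: of 20 such genes, 19 were lower in A than in E at each of the 4 stages. That list was chosen with earlier results of these data known, so it is not an independent check. Replicate 3 of 1 dpf stood apart. In its section A, 36 of 69 other genes on 9 lists of patterning factors and signals had at least 3 counts, against 64 and 62 in replicates 1 and 2, although its library was the deepest of the 3 (8 M against 6.06 and 5.09 M). This replicate was singled out by genes akin to the members, so a call made only without it depends on that choice. Many, but not all, results that use 1 dpf are given with and without this replicate. The count over 5 sections at 1 dpf and that for section A from 1 dpf to 3 dpf are given only with it. The labels call the replicates biological and say no more, so the spread that a p-value rests on may in part be technical.

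**Figure D1:**
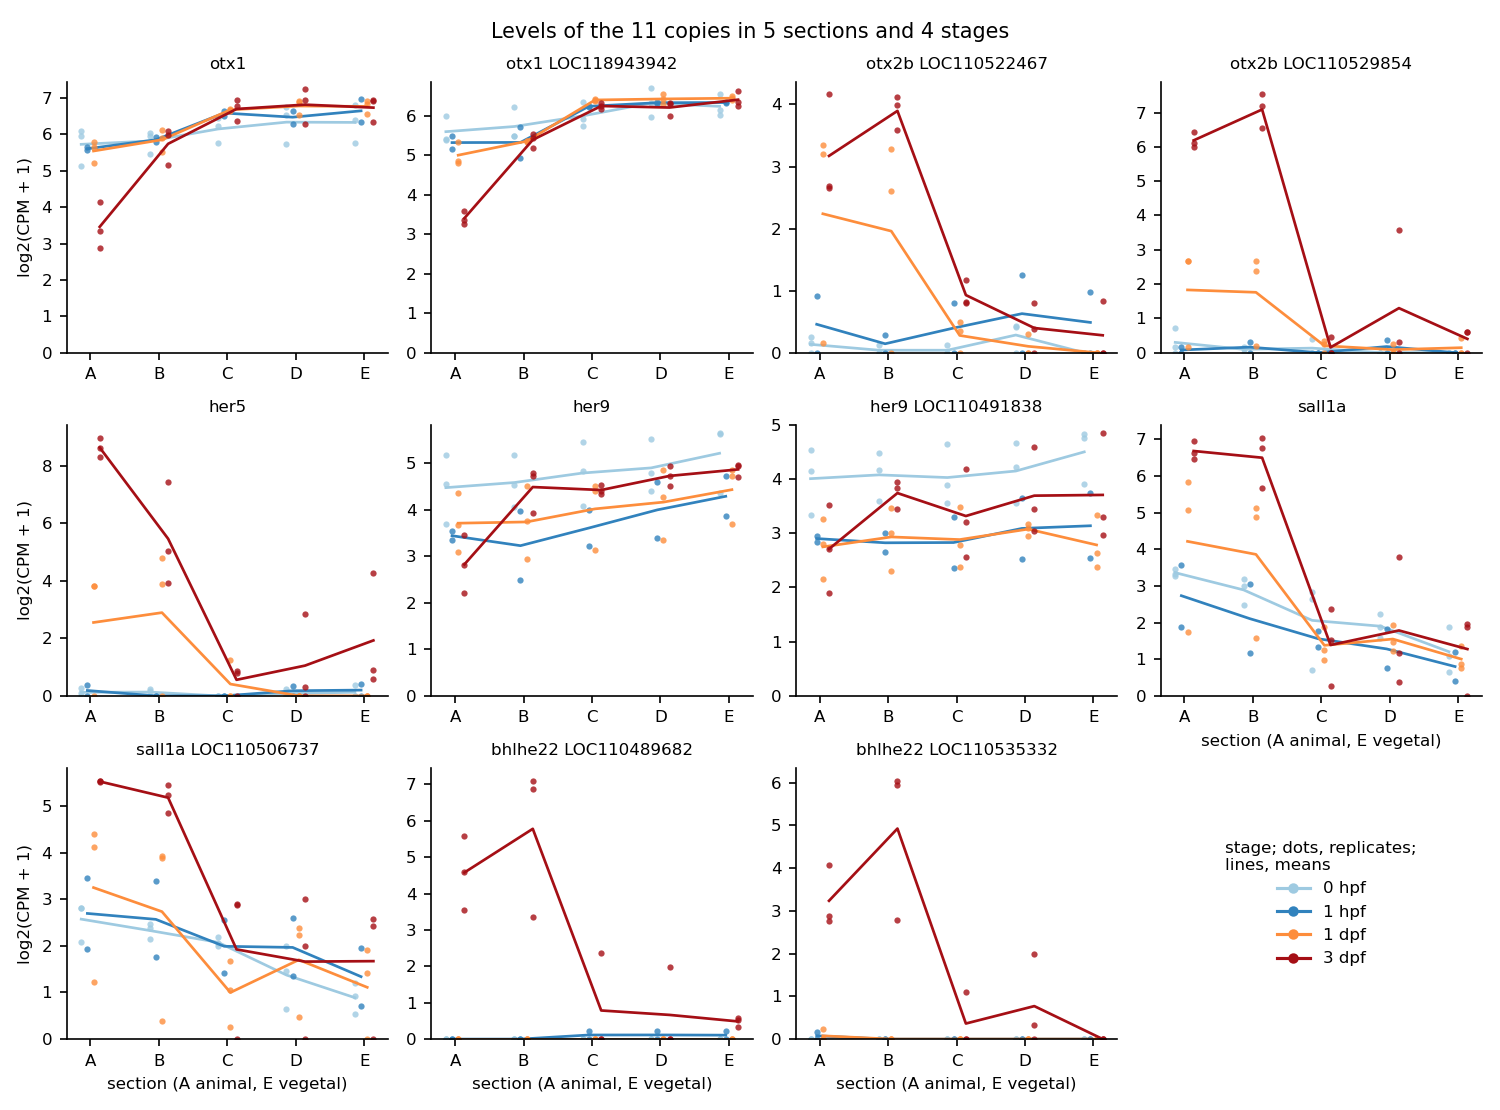
Levels of the 11 copies, as log2(CPM + 1), in sections A to E (horizontal axis) at 4 stages (colours); dots are replicates and lines their means (n = 3, or 2 at 1 hpf). The otx1 and her9 copies were present at every stage and at 3 dpf lowest on average in section A, whereas otx2b, her5, sall1a and bhlhe22 at 3 dpf stood high in sections A and B and low in C, D and E.

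The 11 copies fell into 2 kinds by the direction of A against E at 3 dpf, least clearly for her9 LOC110491838. The otx1 and her9 copies were counted in every library of every stage and were lower in A than in E at 3 dpf. The otx2b, her5, sall1a and bhlhe22 copies were higher in A than in E at 3 dpf, and of these the otx2b, her5 and bhlhe22 copies had almost no counts before 1 dpf. At 0 hpf, 6 of the 11 copies passed the filter on low counts and all 6 differed between A and E, 2 higher in A and 4 lower, against 64.0% of all genes tested (32.0% higher and 32.0% lower). At 1 hpf, 5 of 6 differed (2 higher, 3 lower), against 52.5% of all genes (27.6% higher, 24.9% lower). At 1 dpf, 8 of 9 differed (5 higher, 3 lower), against 63.4% of all genes (32.9% higher, 30.5% lower). The count was again 8 without replicate 3, where the share of all genes is not given here. At 3 dpf all 11 passed the filter and differed, 7 higher in A and 4 lower, against 72.4% of all genes (38.1% higher, 34.3% lower). A difference between the poles was common among genes at large, and the higher share among these few copies was not tested. In section E, the otx2b and her5 copies at 1 dpf and the otx2b and bhlhe22 copies at 3 dpf held 3 or fewer counts. These copies passed the filter only through sections where they were high. The sall1a copies were low in E too, with 17 and 12 counts at 0 hpf against 276 and 166 in A. In the fits of section E alone, sall1a and her5 did not pass the filter, so they too entered through sections where they were higher. The number tested and the number higher in A thus rest in part on the filter. Without the replicate as a block, 2 of 6 copies were called at 0 hpf (10088 of 21799 genes) and 2 of 6 at 1 hpf (6165 of 21644 genes). With all 5 sections compared at once, 6 of 6 copies differed at 0 hpf (56.1% of all genes), 5 of 6 at 1 hpf (46.1%), 8 of 9 at 1 dpf (62.4%) and 10 of 11 at 3 dpf (69.8%).

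The otx1 copies were already present at 0 hpf, and by 3 dpf they had fallen in section A relative to 1 dpf. At 3 dpf, otx1 had 16.7, 6.37 and 9.21 CPM in section A of replicates 1, 2 and 3, against 120, 122 and 80.7 CPM in section E. The 2 sections did not overlap, and section B lay between them at 62, 67.1 and 34.8 CPM. The fold was -3.27 on the log2 scale (SE 0.22, adjusted p = 4.97e-09). Its second copy, LOC118943942, had 11.1, 8.64 and 9.21 CPM in A against 97.9, 81.4 and 74.6 CPM in E (-3.10, SE 0.17, adjusted p = 1.57e-09). For both copies, sections C, D and E did not differ at 3 dpf by more than the larger of the SDs of neighbours in the order of means. Sections A and B, in contrast, each lay apart from the next higher section, with no overlap of replicates.

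The vegetal excess of otx1 was present from the start but small. At 0 hpf, otx1 had 67.1, 34.3 and 61 CPM in A against 112, 53.3 and 84.1 CPM in E, and LOC118943942 had 41.5, 63.1 and 40.9 CPM in A against 69.5, 93 and 64.4 CPM in E. The ranges of the 2 sections overlapped for the first copy, yet in each replicate A was below E for both. The log2 folds of otx1 were -0.59, -1.0 and -1.20 at 0 hpf, 1 hpf and 1 dpf (-1.14 at 1 dpf without replicate 3), and those of LOC118943942 were -0.63, -0.96 and -1.41 (-1.32 without replicate 3), each called. Without the replicate block neither copy was called at 0 hpf (adjusted p = 0.162 and 0.0678). Section A held on average 15.4%, 12.3%, 10.9% and 2.77% of the otx1 level summed over the 5 sections at the 4 stages in turn, where an even spread would give every section the same share. The test of the difference between stages called 3 of 11 copies, all lower, against 43.9% of all genes (22.8% higher, 21.2% lower), with 4 copies at an unadjusted p under 0.05. For the otx2b, her5 and bhlhe22 copies, a pole held 3 or fewer counts at 1 dpf or 3 dpf. No fold is given for these copies, and this test could miss a change in them. Both otx1 copies were among those called: from 1 dpf to 3 dpf the fold of A over E moved by -2.00 for otx1 (SE 0.23, adjusted p = 5.01e-09) and by -1.64 for LOC118943942 (SE 0.20, adjusted p = 2.12e-08). Without 1 dpf replicate 3 these values were -2.06 and -1.74.

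Between 1 dpf and 3 dpf the otx1 copies changed in section A. There, otx1 fell to 16.7, 6.37 and 9.21 CPM at 3 dpf, against 54.1, 49.2 and 35.8 CPM at 1 dpf, without overlap (-2.15, SE 0.34, adjusted p = 0.000367). LOC118943942 fell to 11.1, 8.64 and 9.21 CPM at 3 dpf, against 39.3, 28.1 and 27.2 CPM at 1 dpf (-1.77, SE 0.25, adjusted p = 0.000172). Without 1 dpf replicate 3 the folds were -2.31 and -1.88. In section E, compared between stages after the data had been seen, the folds of 3 dpf over 1 dpf were -0.01 (SE 0.28) and -0.02 (SE 0.17), and none of 21063 genes (0%) passed there, while 255 had an unadjusted p under 0.05 and DESeq2 called 0. On counts summed over the 5 sections neither copy passed (-0.22, adjusted p = 0.708 for otx1 and -0.29, adjusted p = 0.464 for LOC118943942). Such sums weight each section by its depth, so they are not levels of the whole embryo.

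The her9 copies, whose zebrafish counterpart keeps cells between the proneural clusters undifferentiated, were likewise counted at all stages and lower in A than in E at 3 dpf. At 3 dpf, her9 had 9.88, 3.64 and 6 CPM in A against 29.6, 24.9 and 30 CPM in E, without overlap (-2.07, SE 0.27, adjusted p = 4.37e-06). Its folds were -0.78, -0.94 and -0.72 at 0 hpf, 1 hpf and 1 dpf, all called, and -0.88 at 1 dpf without replicate 3. From 1 dpf to 3 dpf the fold of A over E moved by -1.27 (SE 0.32, adjusted p = 0.0015; -1.12, adjusted p = 0.0156 without 1 dpf replicate 3), a call that was lost without the replicate block (adjusted p = 0.176). Section A by itself did not pass: her9 had 9.88, 3.64 and 6 CPM at 3 dpf against 7.52, 11.7 and 19.6 CPM at 1 dpf, which overlapped (-1.03, SE 0.48, adjusted p = 0.0967). At 3 dpf A was apart from C, the next higher section, while the other neighbours in the order of means (E, D, B, C) differed by less than the larger of their SDs.

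The second her9 copy, LOC110491838, had the weakest pattern along the axis. It was lower in A at 0 hpf, at 9.14, 22.1 and 16.7 CPM against 14.1, 26.1 and 27.3 CPM in E (-0.51, SE 0.15, adjusted p = 0.00838). It was not called at 1 hpf (-0.40, SE 0.33, adjusted p = 0.32) or at 1 dpf (-0.01, SE 0.28, adjusted p = 0.984), and at 3 dpf it was called at -1.08 (SE 0.43, adjusted p = 0.0312). The replicates differed at that stage. At 3 dpf it had 10.4, 2.73 and 5.57 CPM in A against 8.82, 6.83 and 27.9 CPM in E, so that A was the higher section in replicate 1, and the call was lost without replicate 3 (-0.26, adjusted p = 0.573) or replicate 2 (-1.09, adjusted p = 0.0913). The test over all 5 sections did not call it at 3 dpf (adjusted p = 0.125), and its change in the fold of A over E from 1 dpf was -1.05 (SE 0.47, adjusted p = 0.065; -1.25, adjusted p = 0.0496 without 1 dpf replicate 3).

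**Figure D2:**
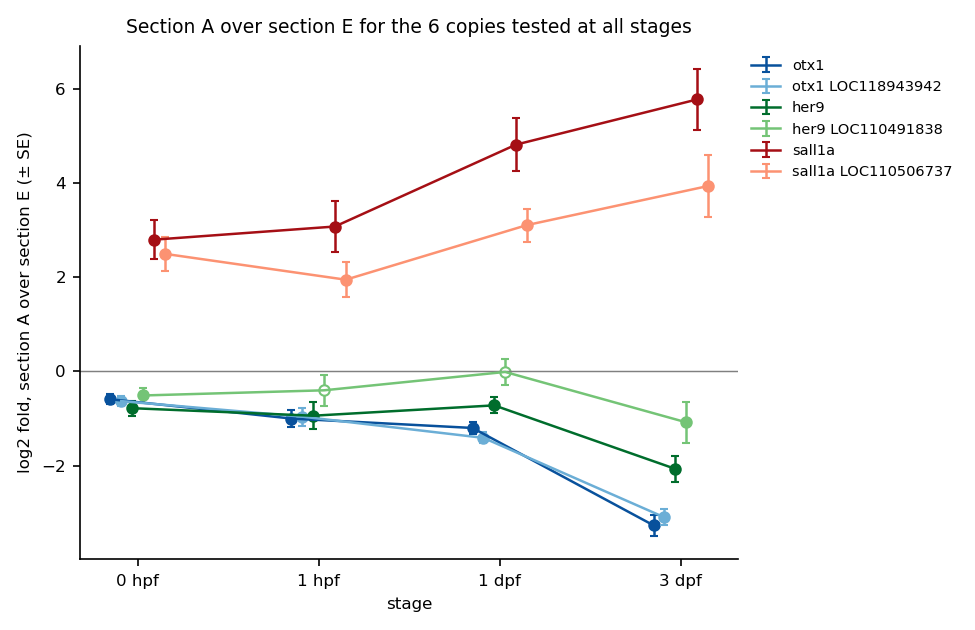
Log2 fold of section A over section E (vertical axis, with SE) at each stage for the 6 copies that passed the count filter at all 4 stages; filled points are called at an adjusted p under 0.05 and open points are not. The otx1 copies run down to -3.27 and -3.10 at 3 dpf, her9 to -2.07, and the sall1a copies stand at 5.78 and 3.94.

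The sall1a copies were the only members both present in the egg and higher at the animal end, among the copies that passed the filter at 0 hpf. Human SALL1 is the gene altered in Townes-Brocks syndrome, which affects ears, limbs and kidneys. At 0 hpf, sall1a had 10.1, 8.68 and 9.08 CPM in A against 2.71, 1.12 and 0.557 CPM in E, and the mean level declined section by section from A to E. The 2 sections did not overlap (2.80, SE 0.42, adjusted p = 2.47e-05). LOC110506737 had 6.02, 3.25 and 6.08 CPM in A against 0.903, 0.449 and 1.3 CPM in E (2.5, SE 0.36, adjusted p = 1.32e-05), with the same order of the sections. At 1 hpf the folds were 3.08 (SE 0.54) and 1.95 (SE 0.37), from 2 replicates that differed in level: sall1a had 10.9 and 2.71 CPM in A of replicates 1 and 3, against 1.29 and 0.323 CPM in E. With either 1 hpf replicate left out neither copy was called at that stage, with folds of 2.98 and 3.06 for sall1a and 2.08 and 1.78 for LOC110506737.

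At the later stages sall1a was higher in A than in E, with B near A. At 1 dpf it had 56.2, 32.3 and 2.36 CPM in A against 1.58, 0.84 and 0.697 CPM in E (4.82, SE 0.57, adjusted p = 1.53e-06; 5.17 without replicate 3). In replicate 3 the level of A was below that of every section A library of 0 hpf and 1 hpf. At 3 dpf sall1a had 87.4, 97.3 and 123 CPM in A against 2.65, 2.89 and 0 CPM in E (5.78, SE 0.65, adjusted p = 7.23e-07). LOC110506737 at 3 dpf was even between replicates in A, at 45.3, 44.6 and 45.6 CPM, against 4.41, 4.99 and 0 CPM in E (3.94, SE 0.66, adjusted p = 5.17e-05). Its A over E fold at 1 dpf was 3.11 (SE 0.35, adjusted p = 7.5e-07; 3.02 without replicate 3).

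Whether the sall1a copies were called in section A between 1 dpf and 3 dpf depended on 1 dpf replicate 3 and on the replicate block. The 3 dpf levels did not overlap those of 1 dpf, but the folds were 1.69 (SE 0.74, adjusted p = 0.0822) for sall1a and 1.77 (SE 0.70, adjusted p = 0.0556) for LOC110506737, not called. Without 1 dpf replicate 3 they were 1.13 (adjusted p = 0.0383) and 1.22 (adjusted p = 0.0302), smaller and called. With the replicate number as a block they were 2.09 (adjusted p = 0.041) and 2.05 (adjusted p = 0.0295). The change in the fold of A over E from 1 dpf to 3 dpf was not called for either copy (1.0, SE 1.17 and 0.84, SE 0.80).

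The otx2b copies were close to 0 at 0 hpf and 1 hpf and were present in the animal sections of some replicates at 1 dpf. LOC110529854 had 8 counts over the 15 libraries of 0 hpf and 4 over the 10 libraries of 1 hpf, and LOC110522467 had 9 and 15. At 1 dpf LOC110522467 had 9.22, 8.24 and 0.112 CPM in A and 5.06, 8.69 and 0 CPM in B, against 0 counts in all 3 libraries of E. Its fold of A over E was at least 22.5, set against 3 counts over the libraries of E (adjusted p = 1.88e-06). At 1 dpf LOC110529854 had 5.39, 5.32 and 0.112 CPM in A, against 0, 0 and 0.349 CPM in E (adjusted p = 0.000751), and the ratio of pooled counts, 70 against 1, was 37 with a counting interval of 6.42 to 1481. In replicate 3 both copies were within the range of section A at 1 hpf. Without that replicate the adjusted p-values at 1 dpf were 3.63e-07 and 7e-06.

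Of the 2 otx2b copies, only LOC110529854 was called between 1 dpf and 3 dpf, in section A as in section B. In section A, LOC110529854 had 85.9, 68.7 and 63.4 CPM at 3 dpf, against 5.39, 5.32 and 0.112 CPM at 1 dpf, and rose by 4.29 (SE 0.76, adjusted p = 0.000779; 3.67 without 1 dpf replicate 3). LOC110522467 had 5.32, 5.46 and 16.9 CPM at 3 dpf, against 9.22, 8.24 and 0.112 CPM at 1 dpf, which overlapped (0.60, SE 1.02, adjusted p = 0.659; 0.02 without 1 dpf replicate 3). The difference between the copies was not tested, and reads that fit both could have been divided or dropped in the counting. In section B, LOC110529854 had 146, 184 and 92.3 CPM at 3 dpf against 4.24, 5.43 and 0.152 CPM at 1 dpf (5.41, SE 0.66, adjusted p = 0.00239), and LOC110522467 had 11, 16.3 and 14.9 CPM at 3 dpf against 5.06, 8.69 and 0 CPM at 1 dpf, without overlap but not called (1.55, SE 0.92, adjusted p = 0.336). At 3 dpf both were higher in A than in E. The ratio of pooled counts was 195 for LOC110529854 (786 counts against 3, interval 66.4 to 947, adjusted p = 1.43e-07) and 27.8 for LOC110522467 (112 against 3, interval 9.26 to 137, adjusted p = 1.73e-05).

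In zebrafish, her5 keeps cells of the midbrain-hindbrain boundary from becoming neurons. Its single copy here appeared in 2 of 3 replicates at 1 dpf and was high in section A of all 3 at 3 dpf. It had 7 counts over all libraries of 0 hpf and 3 over those of 1 hpf. At 1 dpf it had 13.2, 13.2 and 0 CPM in A and 26.6, 13.9 and 0 CPM in B, against no count in E, a fold of A over E of at least 33.8 (adjusted p = 3.26e-05; 1.69e-07 without replicate 3). Replicate 3 had no her5 count in any section, whereas replicates 1 and 2 had 261 and 128. At 3 dpf it reached 319, 389 and 504 CPM in A, against 0.882, 18.4 and 0.508 CPM in E. The sections did not overlap (5.59, SE 0.80, adjusted p = 1.07e-05), although E of replicate 2 held 70 counts. In section A, her5 rose by 5.49 from 1 dpf to 3 dpf (SE 0.81, adjusted p = 0.000219; 4.85 without 1 dpf replicate 3). In section B it had 31.9, 14.2 and 171 CPM at 3 dpf against 26.6, 13.9 and 0 CPM at 1 dpf, and did not pass (2.34, SE 1.16, adjusted p = 0.248).

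The bhlhe22 copies were the last to appear. LOC110489682 had no count at 0 hpf, 3 counts at 1 hpf and none at 1 dpf, and LOC110535332 had 0, 1 and 1. At 3 dpf LOC110489682 had 47.1, 23.2 and 10.7 CPM in A and 117, 136 and 9.25 CPM in B, against 0.441, 0.263 and 0.508 CPM in E. The ratio of pooled counts of A over E was 71.1 (287 against 3, interval 24.1 to 347, adjusted p = 8.68e-06). LOC110535332 had 15.7, 6.37 and 5.78 CPM in A and 60.7, 64.8 and 5.89 CPM in B, against no count in E, a fold of A over E of at least 24.9 (adjusted p = 7.53e-05). Relative to 1 dpf, LOC110489682 rose in section A at least 196-fold (adjusted p = 0.000593) and in section B at least 477-fold (adjusted p = 0.0226). LOC110535332 rose in section A by a ratio of 207 (103 counts at 3 dpf against 1 at 1 dpf, interval 36.4 to 8272, adjusted p = 0.000384) and in section B at least 239-fold (adjusted p = 0.0217). Both copies had at most 1 count in any earlier library and passed the filter in these fits only through 3 dpf. Only a rise could therefore be called. In section B both copies were low in 3 dpf replicate 3, and with replicate 1 or 2 of either stage left out neither copy passed there (adjusted p between 0.0523 and 0.0676).

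**Figure D3:**
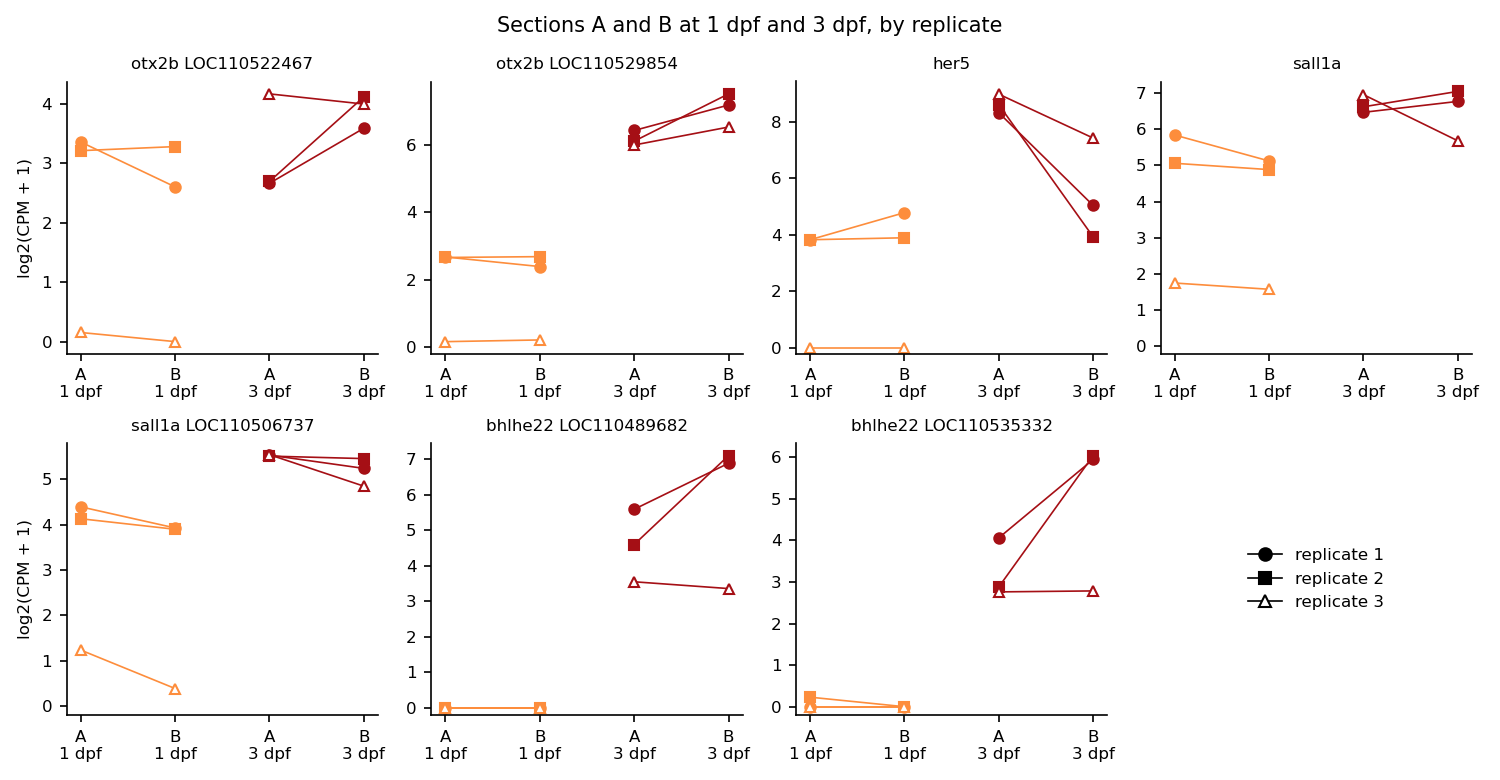
Levels of the 7 copies that were higher in section A than in section E at 3 dpf, as log2(CPM + 1), in sections A and B at 1 dpf (orange) and 3 dpf (red), with a line for each replicate. At 1 dpf replicate 3 (open triangles) lies at or near 0 for otx2b and her5 and below the other replicates for sall1a, and at 3 dpf it lies lowest in section B for bhlhe22 and highest there for her5.

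Between consecutive stages the calls for sections A and B were few before 3 dpf. In these sections the otx2b, her5 and bhlhe22 copies passed the filter only through the later stages where they were high. From stages where they had almost no counts, only a rise could be called. The number of copies called higher thus rests in part on the filter. Between 0 hpf and 1 hpf none of the 11 copies passed in section A, with 2 at an unadjusted p under 0.05, against 0.929% of all genes called, and DESeq2 called 0 of the copies. None of the copies tested passed between these times in section B (0.728% of all genes) or section E (0.788%) either, with 2 at an unadjusted p under 0.05 in each and 0 called by DESeq2. In each of the 3 sections those 2 were the her9 copies, lower at 1 hpf. The folds of her9 and LOC110491838 were -1.21 and -1.29 in A, -1.29 and -1.39 in B, and -1.02 and -1.39 in E. From 1 hpf to 1 dpf, none of the 11 passed in section A either, where edgeR called 0 of 23147 genes (0%), 852 had an unadjusted p under 0.05 and DESeq2 called 13. Of the copies, 4 had an unadjusted p under 0.05 and DESeq2 called 0. With 1 dpf replicate 3 left out, edgeR called 364 genes and 3 of the copies, all higher at 1 dpf: otx2b LOC110529854 (adjusted p = 0.00748), her5 (adjusted p = 0.000698) and sall1a (2.91, adjusted p = 0.0166). In section B, 0 of 23066 genes were called from 1 hpf to 1 dpf (568 at an unadjusted p under 0.05, 3 by DESeq2). Without that replicate 116 were called there, including otx2b LOC110522467 (adjusted p = 0.0127) and LOC110529854 (adjusted p = 0.0163). These calls in A and B depend on leaving out a replicate chosen because fewer patterning factors and signals had counts in it. From 1 dpf to 3 dpf, 6 of 11 copies changed in section A, 4 higher and 2 lower (49.4% of all genes, 25.5% higher and 23.9% lower). With the replicate number as a block the count in section A was 8, both sall1a copies being added. Without the block, 3 of 11 changed in section B, all higher (8.15% of all genes, 5.30% higher and 2.85% lower). With the block sall1a was added there (2.36, adjusted p = 0.0391). Shares of all genes in the fits with the block are not given here. Whether these gains in sections A and B exceed those of genes at large was not tested.

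At 3 dpf most of the copies also differed between sections A and B. Section A was higher than section B for her5, and lower for 7 copies: those of otx1, her9 and bhlhe22, and otx2b LOC110529854. In all, 8 of 11 copies differed between A and B, against 57.2% of all genes (28.7% higher, 28.6% lower). The gene her5 had 319, 389 and 504 CPM in A against 31.9, 14.2 and 171 CPM in B (2.87, SE 0.67, adjusted p = 0.00178), and A held 85.5% of its level summed over the 5 sections. The otx2b copy LOC110529854 had 85.9, 68.7 and 63.4 CPM in A against 146, 184 and 92.3 CPM in B (-0.94, SE 0.36, adjusted p = 0.0353), without overlap.

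The bhlhe22 copies were lower in A than in B, by a wide margin in 2 of the 3 replicates. LOC110489682 had 47.1, 23.2 and 10.7 CPM in A against 117, 136 and 9.25 CPM in B (-1.36, SE 0.45, adjusted p = 0.017), and LOC110535332 had 15.7, 6.37 and 5.78 CPM in A against 60.7, 64.8 and 5.89 CPM in B (-1.85, SE 0.48, adjusted p = 0.00441). In replicate 3 the sections were near each other for both copies, so the ranges of A and B overlapped. The sall1a copies did not differ beyond the test's threshold, with folds of 0.25 (SE 0.42) and 0.39 (SE 0.48), and neither did otx2b LOC110522467 (-0.68, SE 0.37, adjusted p = 0.129). The otx1 copies (-2.28, SE 0.22 and -2.09, SE 0.17) and her9 copies (-1.72, SE 0.27 and -1.06, SE 0.41) were lower in A than in B, A being the lower section in each of the 3 replicates.

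These A to B differences depended on single replicates and on the tool. Leaving out replicates 1, 2 and 3 in turn gave 5, 4 and 9 of 11 copies, beside 9432 of 22434, 8284 of 22552 and 12977 of 21925 genes. DESeq2 gave 3 of 11, beside 12294 of 22380 genes, with her5 at an adjusted p of 0.0503. Without replicate 1 her5 was at 2.62 (adjusted p = 0.0547), and without replicate 2 otx2b LOC110529854 was at -0.75 (adjusted p = 0.199). Markers of the extraembryonic layers also differed between A and B. Of 15 genes of the enveloping layer, the outer epithelium of a fish blastula, 12 were higher in A than in B and 1 lower, with a summed level of 1200 to 1355 CPM in A and 351 to 458 CPM in B over the 3 replicates. Of 5 genes of the yolk syncytial layer, the nuclei beneath the blastoderm, 3 were lower in A and none higher, with sums of 121 to 202 CPM in A and 223 to 596 CPM in B. None of these 20 genes was at 0 in A or B, and their part in the differences of the members was not tested.

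**Figure D4:**
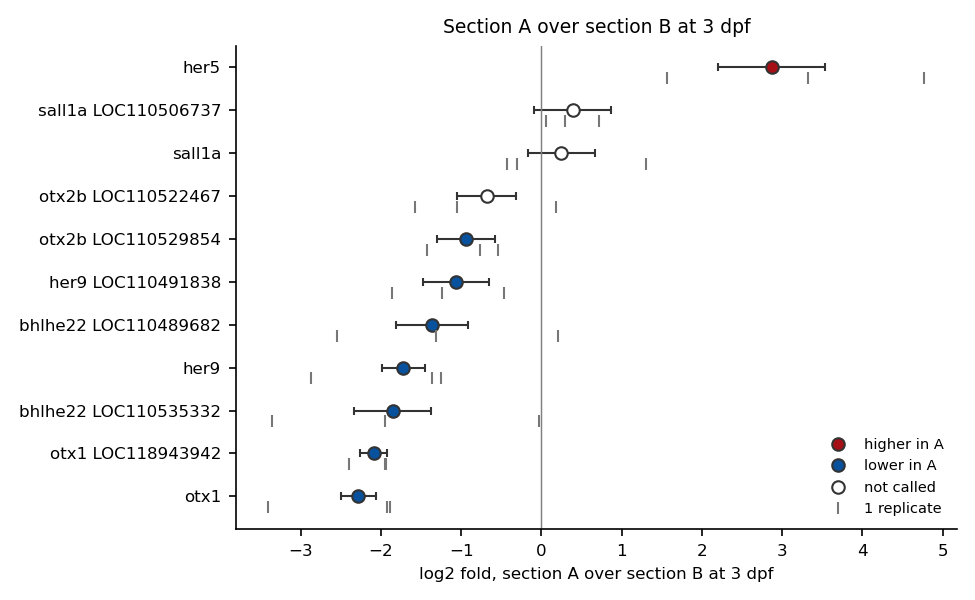
Log2 fold of section A over section B at 3 dpf (horizontal axis) for the 11 copies, as fitted value with SE (circles) and as the values of the 3 replicates (ticks). At 2.87, her5 alone was called higher in A, and the otx1 copies at -2.28 and -2.09 were lowest. The ticks spread most widely for her5 (1.56 to 4.77) and both bhlhe22 copies.

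Copies of a symbol were compared by their profiles across the 20 combinations of section and stage. Pearson's r of log2(CPM + 1) was 0.97 for the otx1 pair, 0.93 for otx2b, 0.84 for her9, 0.96 for sall1a and 0.99 for bhlhe22, as a description over points that share libraries and depth. Some copies of different symbols were as alike: otx2b LOC110529854 had r of 0.95 and 0.96 with the bhlhe22 copies and 0.93 with her5. The otx2b, her5 and bhlhe22 copies were near 0 at most of the points. Their r thus rests mainly on sections A and B of 3 dpf and, except for bhlhe22, of 1 dpf. Among 22852 genes with a mean of at least 1 CPM, those most like otx1 included picalmb, a clathrin assembly protein (r = 0.992), and mknk1, a kinase of the translation factor eIF4E (0.992). Closest to otx2b LOC110529854 were hnf1ba/hnf1bb (LOC110503921, 0.993) and the T-box gene tbr1b (0.992). Closest to her5 were wu:fc11c11 (0.997), e1 (0.996) and foxh1, a partner of Smad proteins in Nodal signalling (0.993). The gene most like sall1a was rb1cc1 (0.972), followed by the receptor fgfr4 (0.969). Closest to bhlhe22 LOC110489682 were LOC110491370 (0.999), gadd45ga and ftr14 (0.997 each), and the best values for her9 were lower, at 0.949 for LOC110510102.

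The forebrain, midbrain, SoxB and Zic factors outside the group that could be tested were also mostly higher in A than in E at 3 dpf. Hindbrain factors were divided. Of all genes tested in this contrast, 38.1% were higher and 34.3% lower. Genes nearly absent in E, such as six7 (105 counts in A, 1 in E) and tbr1b (371 and 3), passed the filter only through sections where they were high. For such genes only a higher call was possible, so the list counts rest in part on the filter. Whether they exceed the share of all genes was not tested. From 45 forebrain and midbrain symbols, 7 genes that are not members were matched and 6 were tested. Of these 6, 5 were higher and 1 lower, with a median log2 fold of 4.88 beside 0.07 for all genes. Examples are six7, at 9.34 ± 2.3 CPM in A and 0.0875 ± 0.152 CPM in E, tbr1b, at 35.2 ± 24.9 CPM in A and 0.441 ± 0.764 CPM in E, and hesx1 (1.93, SE 0.34; all SD, n = 3). Of 9 midbrain-hindbrain boundary and hindbrain factors, 4 were higher and 5 lower (median -0.54), among them meis2b (-2.41), mafba (-2.29) and pbx4 (2.19). SoxB and Zic factors, early neural regulators, had 9 of 11 higher and 1 lower (median 4.66). The sox19a copies LOC110534223 and LOC110500375 were at 6.38 and 2.03, and the sox3 copy LOC110504954 was lower, at -3.37 with 36.5 ± 6.95 CPM in A and 380 ± 21.8 CPM in E (SD, n = 3). From 28 hairy and hey symbols only 1 other gene was tested, hes6 (-1.79). From 23 proneural and Olig-family symbols 3 other genes were tested. Of these, bhlhe23 was higher, at 27.7 ± 1.47 CPM in A and 0.441 ± 0.764 CPM in E (SD, n = 3), and neurod2 (-2.45) and neurod4 (-1.19) were lower. Of 3 other sall genes, sall4 LOC110492058 (1.01) and sall2 (2.49) were higher, and sall4 (-0.22) was not called.

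Posterior, ectodermal and signalling genes were also mostly higher at the animal end. Their counts rest in part on the same filter and stand beside the same 38.1% higher and 34.3% lower of all genes. Of 9 posterior and tail factors 7 were higher in A and 1 lower (median 5.52), led by vox, a repressor of dorsal fate in zebrafish, at 460 ± 45 CPM in A and 6.11 ± 8.05 CPM in E (6.0, SE 0.57, adjusted p = 1.11e-07, n = 3) and the tbx16 copies (5.70 and 6.28). All 8 tested factors of the non-neural ectoderm were higher (median 4.57, or 4.18 with the 1 gene without counts in E at its lower bound, a change that moved no other list's median), among them gata2a (4.23) and the foxi1 copies (5.57 and 4.90). Of 13 anterior and dorsal signals, 11 were higher and 2 lower (median 3.78), with frzb, a Wnt antagonist, at 2.47, chrd, a Bmp antagonist, at 6.51 and fgf8a at 5.98. In the same contrast 13 of 15 enveloping layer genes were higher and 2 lower (median 4.14), and 4 of 5 yolk syncytial layer genes were higher and 1 lower (median 3.13), including hnf4a, with no count in E and a fold of at least 31.2. Of 20 vegetal pole transcripts 1 was higher and 19 lower (median -4.57), hwa at -8.12. Few markers of cells that should be absent were matched, so the absence of such cells was not shown. Of 7 blood symbols none was matched. From 10 follicle cell symbols 1 gene was matched, which did not pass the filter at 3 dpf. From 9 sperm and testis symbols 2 genes were matched: spata18 was lower in A (-1.78) and spata4 was not called (-0.41).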

How the data were processed

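Total RNA of each section was extracted, depleted of ribosomal RNA and made into strand-specific libraries from 30 ng, per the labels' protocols. The authors deposited whole-number read counts per gene; fastp 0.23.4, STAR 2.7.11, HTSeq 2.0.4 and DESeq2 are named in the submitters' processing notes. Which genome build was used, and whether reads were counted by strand, is not given in the sources used here. No coordinates, gene lengths or sequences were used. Of 60 labelled libraries, 55 were in the count table; the 5 of 1 hpf replicate 2 were not analysed here, nor were 132 columns of other per-sample values. No 2 libraries held identical counts. Zebrafish names came from the authors' deposited ortholog table.

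The test was the quasi-likelihood F-test of edgeR 4.0.16 (R 4.3.3) on the counts, after TMM scaling and filterByExpr (minimum count 10), with Benjamini-Hochberg adjustment over all genes tested, called under 0.05. All adjusted p-values are from this test unless DESeq2 1.42.0 is named. Sections were compared within a stage with the replicate as a block, since the sections of a stage share replicate numbers. That sections of 1 number came from the same eggs or embryos is taken from these numbers. Stages were compared within a section, without a block, and the change of A over E in 1 fit of all 55 libraries. The test for section B and section E between stages was added after the data were seen. Folds are log2. A fold against a group without counts is given as at least the fold against 3 counts in the whole group (3 counts in a single library were 0.192 to 2.98 CPM). With 1 to 3 counts the ratio of pooled counts has an exact 95% binomial interval, and with 3 or fewer in both no fold is given. Such intervals and floors cover counting error only. Scripts were tested on simulated data.

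In section A, deviations of same-numbered replicates of 3 dpf and 1 dpf from their stage means correlated at 0.14, 0.20 and 0.36 across genes, all above 0.1. The check did not settle whether the numbers pair the samples. Replicate 1 of 3 dpf correlated with replicate 2 of 1 dpf at 0.17, and replicate 2 with replicate 1 at 0.22. Values with the block are therefore given where they change a call, beside the fit without it. The 2 pairs of 1 dpf with 1 hpf gave 0.42 and 0.49, but 1 dpf replicate 2 and 1 hpf replicate 1 gave 0.4. Those of 1 hpf with 0 hpf gave 0.08 and 0.05.

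Members and gene lists were chosen with earlier results of these data known. All copies are named, and of each list at most the 3 genes with the smallest adjusted p for A over E at 3 dpf. Genes with similar profiles are taken from the first 3 by Pearson's r, and not all of these are reported here.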

Additional observations from a re-analysis of the deposited data

Results flagged for a closer look

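The fold of section A over section E differed between 3 dpf and 1 dpf by a test of that difference for 3 copies, each further below 0 at 3 dpf. The change was -2.00 for otx1, -1.64 for otx1 LOC118943942 and -1.27 for her9, on the log2 scale. These 3 of 11 copies compare with 43.9% of all genes called in the same test. The otx2b, her5 and bhlhe22 copies had 3 or fewer counts at a pole in 1 of the stages, so a change in them could be missed. No group had enough replicates for a check for single outlying samples.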

How the results depend on the processing

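The results of the copies were recomputed with other scalings, with no low-count filter, with DESeq2, with or without the replicate block, with all stages in 1 fit, on summed sections, and with each replicate left out. Between stages, only some copies were included, except in section A from 1 dpf to 3 dpf. None was included from 0 hpf to 1 hpf, so the her9 folds there are not covered. Of 1100 such values, 983 kept their direction and their side of the threshold, 79 lost the call, 22 gained it and 16 changed sign, none of these called in either version. Of the lost calls, 24 were lost without the replicate block and 35 with 1 replicate left out. Without the block, calls between A and E fell to 2 at 0 hpf, 2 at 1 hpf and 5 at 1 dpf, those over 5 sections to 2 at 0 hpf and 2 at 1 hpf, and those between A and B to 5. For the stage contrast of 3 dpf and 1 dpf in section A, pairing by replicate number gave 8 copies in place of 6, and in section B 4 in place of 3; no count of copies between stages moved by over 1.5 times with the block. With 1 replicate left out at 1 hpf, fewer copies were called between A and E and over 5 sections. There the 1 remaining replicate was assumed to vary like the sections around it. With 1 replicate left out elsewhere, the calls were 4 to 9 between A and B, and 1 to 3 in section B from 1 dpf to 3 dpf. From 1 hpf to 1 dpf they were up to 3 in section A and up to 2 in section B. DESeq2 called 3 between A and B, and 1 fit of all stages called 3 over 5 sections at 1 hpf. Counts over all genes are given below where they moved by over 1.5 times, and those given without the block fell as well. For A and E at 1 dpf and for A and B, counts over all genes without the block are not given here. Nor is that over 5 sections at 1 hpf in 1 fit of all stages. Whether the copies moved more than genes at large was not tested. The cause was not tested.

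Signs changed for her9 LOC110491838 in A over E at 1 hpf (0.36 without replicate 3, -0.86 without replicate 1) and at 1 dpf (0.30 with library size only, -0.23 to 0.17 with 1 replicate left out, 0.02 without replicate 1), and in section A between 3 dpf and 1 dpf (-0.32 with library size only, -0.28 without 1 dpf replicate 3, and -0.55 to 0.37 with 1 replicate left out). They also changed for sall1a in A over B (-0.41 without replicate 3, up to 0.56 without replicate 2), for otx2b LOC110522467 in section A (-0.19 without 3 dpf replicate 3, up to 1.11 without 1 dpf replicate 1), for her9 on summed sections (0.22), and in section E for otx1 (-0.11 to 0.15) and LOC118943942 (-0.13 to 0.06) with single replicates left out.

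Counts over all genes moved by over 1.5 times as follows. Over 5 sections at 0 hpf, 12226 genes were called, 7743 without the block and 7490 without replicate 3. Between A and E at 1 hpf, 11367 were called, 6165 without the block and 6672 without replicate 3, and over 5 sections 9985 and 4227 without the block. Between A and B, 12809 were called and 8284 without replicate 2. In section A from 0 hpf to 1 hpf, 215 were called, 849 by DESeq2, 816 on summed sections and 69 to 684 with 1 replicate left out, and from 1 dpf to 3 dpf 11434, against 2630 on summed sections. From 0 hpf to 1 hpf, 168 were called in section B (887 by DESeq2, 42 to 580 with 1 replicate left out) and 166 in section E (606 by DESeq2, 270 with the block, 39 to 546 with 1 replicate left out). In section B from 1 dpf to 3 dpf, 1880 were called, 3273 by DESeq2, and 405 without 3 dpf replicate 1, the lowest with 1 replicate left out. Depth limits the early levels of otx2b, her5 and bhlhe22, which lie near or under 3 counts per library.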
